A study of Homo sapiens with 6 samples.

Results

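Adhesion G protein-coupled receptors were taken as every gene whose listed symbol starts with ADGR, which gave 25 of the 16832 symbols measured. Messenger RNA levels come from RNA sequencing of U251, a long-established line of human glioma cells whose genotype the labels give as WT. In 3 libraries (SLCDS replicates 1 to 3) the cells had received SLCDS, a small-molecule combination whose components the labels do not name, for 18 days, which the study describes as a conversion towards neuron-like cells, and in 3 libraries (control replicates 1 to 3) they had received PBS instead. Neither the culture time of the controls nor whether the replicates were separate cultures is stated, so culture age is not known to match and the p-values measure only the spread between these libraries, which may be technical. Of the 25 genes, 10 reached an FPKM (fragments per length of transcript, adjusted for the depth of the library) of at least 1 in 3 or more libraries and were tested, and 15 did not.

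Adhesion receptors carry a long extracellular part built of adhesion domains, joined to the membrane-spanning core by a domain in which many of them cut themselves. The cut exposes a short tethered sequence that can switch the receptor on when its ligand on a neighbouring cell or in the matrix pulls the outer part away. Many members signal through G proteins of the G12/13 class to RhoA. In the brain the family is known for roles in cortical development, synapse formation, vessel growth and myelination, and several members have been studied in glioma.

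The libraries held 16265000 to 17166000 fragments, so for a transcript 2000 nucleotides long a value of 1 FPKM stood for 32.5 to 34.3 fragments. These depths follow from the FPKM values themselves: within 0.03 of a fragment, 99.8% of the symbols gave whole numbers of fragments in all 6 libraries, which also fixed the transcript length used for each gene. Control replicate 3 stood apart from the other libraries. Against the mean of control replicates 1 and 2, its values on the log2(FPKM + 1) scale had a median difference of 0.41 over 2001 tested genes shorter than 2000 nucleotides and of -0.30 over 3093 tested genes of 6000 nucleotides or more. Between control replicates 1 and 2 no length class had a median difference beyond 0.0034. Most tested adhesion receptor genes are long, from 3490 nucleotides for ADGRE5 to 19394 for ADGRV1, so the values of the tested members are also given without control replicate 3. The 6 astrocyte and glioma markers checked (GFAP, VIM, NES, SOX2, S100B and GJA1) were all above the filter, with summed FPKM of 2335 to 2420 in SLCDS libraries and 2441 to 2860 in control libraries, a sum made up mostly of VIM. Within it GFAP fell to a mean of 135 FPKM in SLCDS, against 339 in control (log2 fold change -1.32, limma, adjusted p = 0.000596), and GJA1 fell to 58.8 in SLCDS, against 118 in control (log2 fold change -0.98, limma, adjusted p = 0.00161). The other 4 were not called over all libraries. Among them NES averaged 254 FPKM in SLCDS and 216 in control, S100B 17.8 and 14.0, VIM 1524 and 1507, and SOX2 376 and 431. Leaving out control replicate 3, 2 of the 6 were higher and 3 lower, where 27.8% of all genes tested were called. Of 5 neuron markers (RBFOX3, SYN1, SNAP25, TUBB3 and DCX) 2 were above the filter and neither was called over all libraries (without control replicate 3, 1 was higher and 1 lower). TUBB3 averaged 29.5 FPKM in SLCDS and 39.4 in control, while SNAP25 averaged 6.24 in SLCDS and 4.85 in control and SYN1, below the filter, 0.887 in SLCDS and 0.529 in control, so the markers differed in both directions.

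**Figure D1:**
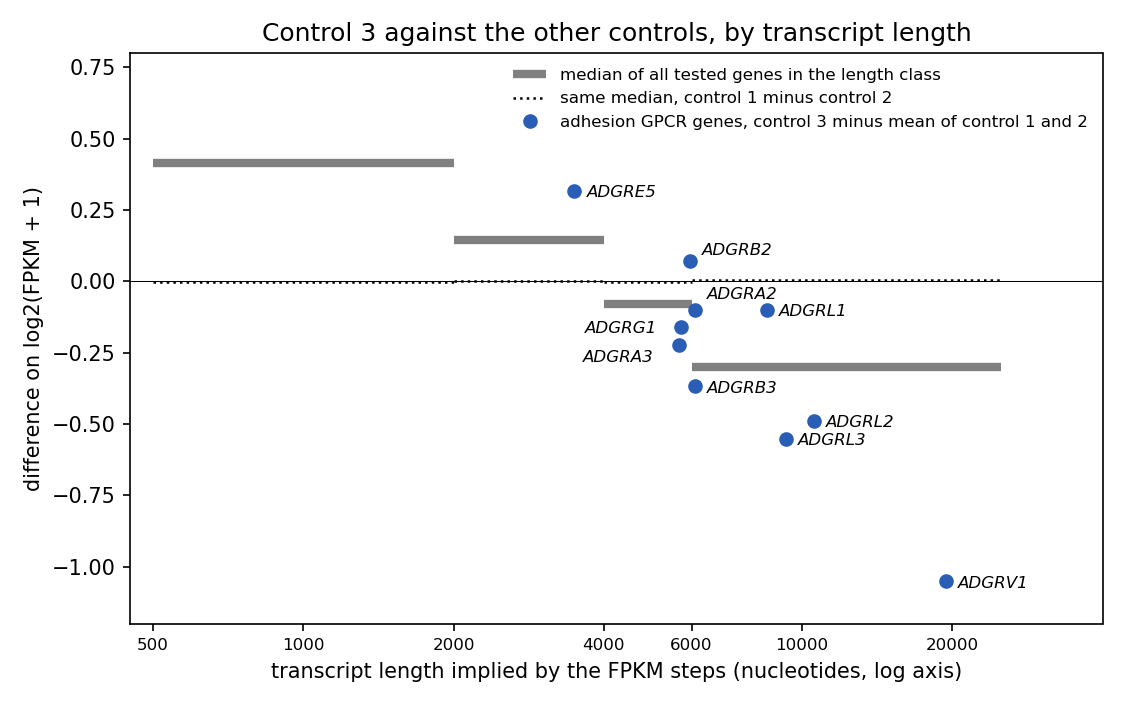
Difference between control replicate 3 and the mean of control replicates 1 and 2 on the log2(FPKM + 1) scale (y axis) against implied transcript length in nucleotides (x axis, log), for the 10 tested members (points), with medians of all tested genes in 4 length classes (grey bars; the outer classes are open-ended) and the same medians for control replicate 1 minus 2 (dotted). The longest member, ADGRV1, lay lowest at -1.05, and ADGRE5, the shortest, lay at 0.32.

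The members' start regions differed widely in base composition. The set of RefSeq (GRCh38.p14) start regions used here held 15 of the 25 members. It held no region for ADGRA2, ADGRE5 and ADGRL1, which does not mean that RefSeq lists no start for them. Of those held, 4 are shown, picked after their values were seen: ADGRG1 and ADGRV1, whose mean FPKM was lower in SLCDS, and ADGRG6 and ADGRE1, whose mean FPKM was higher at low levels. Each line gives the 250 bases before the first listed start, with CG dinucleotides in capitals.
ADGRG1 (GRCh38.p14 chr16:57619488-57619737, + strand): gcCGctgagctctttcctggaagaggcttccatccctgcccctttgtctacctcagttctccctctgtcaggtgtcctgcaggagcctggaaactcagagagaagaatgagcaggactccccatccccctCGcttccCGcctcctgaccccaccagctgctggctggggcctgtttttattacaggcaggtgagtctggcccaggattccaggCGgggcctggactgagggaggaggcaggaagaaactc
ADGRV1 (GRCh38.p14 chr5:90558547-90558796, + strand): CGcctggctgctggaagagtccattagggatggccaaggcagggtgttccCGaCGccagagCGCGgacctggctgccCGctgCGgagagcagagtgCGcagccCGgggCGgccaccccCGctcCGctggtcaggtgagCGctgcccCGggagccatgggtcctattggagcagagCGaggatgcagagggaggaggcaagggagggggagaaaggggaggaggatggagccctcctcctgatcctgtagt
ADGRG6 (GRCh38.p14 chr6:142301757-142302006, + strand): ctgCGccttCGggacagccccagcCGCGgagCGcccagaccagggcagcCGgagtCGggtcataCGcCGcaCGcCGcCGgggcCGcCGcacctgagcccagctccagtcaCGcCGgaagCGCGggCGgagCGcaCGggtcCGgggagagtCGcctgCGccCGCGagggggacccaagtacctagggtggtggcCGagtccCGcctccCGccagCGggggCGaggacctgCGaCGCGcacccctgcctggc
ADGRE1 (GRCh38.p14 chr19:6887329-6887578, + strand): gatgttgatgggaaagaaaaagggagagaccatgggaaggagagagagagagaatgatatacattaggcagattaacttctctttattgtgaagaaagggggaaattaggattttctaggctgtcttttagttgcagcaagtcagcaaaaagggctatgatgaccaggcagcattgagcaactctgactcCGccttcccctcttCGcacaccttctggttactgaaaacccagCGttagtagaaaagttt

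The ADGRG1 window held 4 CG dinucleotides and the ADGRE1 window 3, against 15 in ADGRV1 and 34 in ADGRG6, where the median over 35116 RefSeq windows of the same length was 11. The lower and the higher pair thus each combined a CG-poor window with one holding more CG than the median. On both strands GGGCGG, the GC box, was found in the windows of ADGRV1 and ADGRG6 and in 42.6% of all windows, and CCAAT in that of ADGRV1 and in 32.0% of all windows. TATAAA (10.7% of all windows), TGANTCA (6.6%) and TGACGTCA (1.6%) had no match in these 4 windows. The GC box and CCAAT matches in ADGRV1 did not overlap, and the set held 3 starts for ADGRG1, which gene-level FPKM cannot tell apart.

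Of the 10 tested receptor genes 1 rose, 1 fell and 8 did not pass the test when SLCDS was compared with control. In bulk RNA, fewer cells expressing a gene and less of its RNA per cell cannot be told apart. ADGRA2 rose 2.10-fold by the ratio of mean FPKM, and ADGRG1 fell to 21.6 ± 1.5 FPKM in SLCDS, against 32.4 ± 2.57 FPKM in control (SD, n = 3 each). Over all 11506 genes tested 6.09% were called at an adjusted p under 0.05, with 4.28% of all tested higher and 1.82% lower. Without control replicate 3, 6 of the 10 passed, 3 higher (ADGRA2, ADGRE5 and ADGRL1) and 3 lower (ADGRA3, ADGRG1 and ADGRV1), where 27.8% of all 11460 genes tested passed, 16.1% as higher and 11.7% as lower. SLCDS and control values were fully separate for 6 of the 10 over all libraries, 3 with SLCDS above and 3 below, and for 29.1% of all genes tested, 15.5% with SLCDS above and 13.6% below. The median log2 fold change of the 10 was 0.19, and 0.02 without control replicate 3, where the medians over all genes tested were 0.00036 and 0.0019. Summed over the 25 members, FPKM came to 164 ± 4.73 in SLCDS and 162 ± 7.02 in control, so the family's total level differed by less than its spread.

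**Figure D2:**
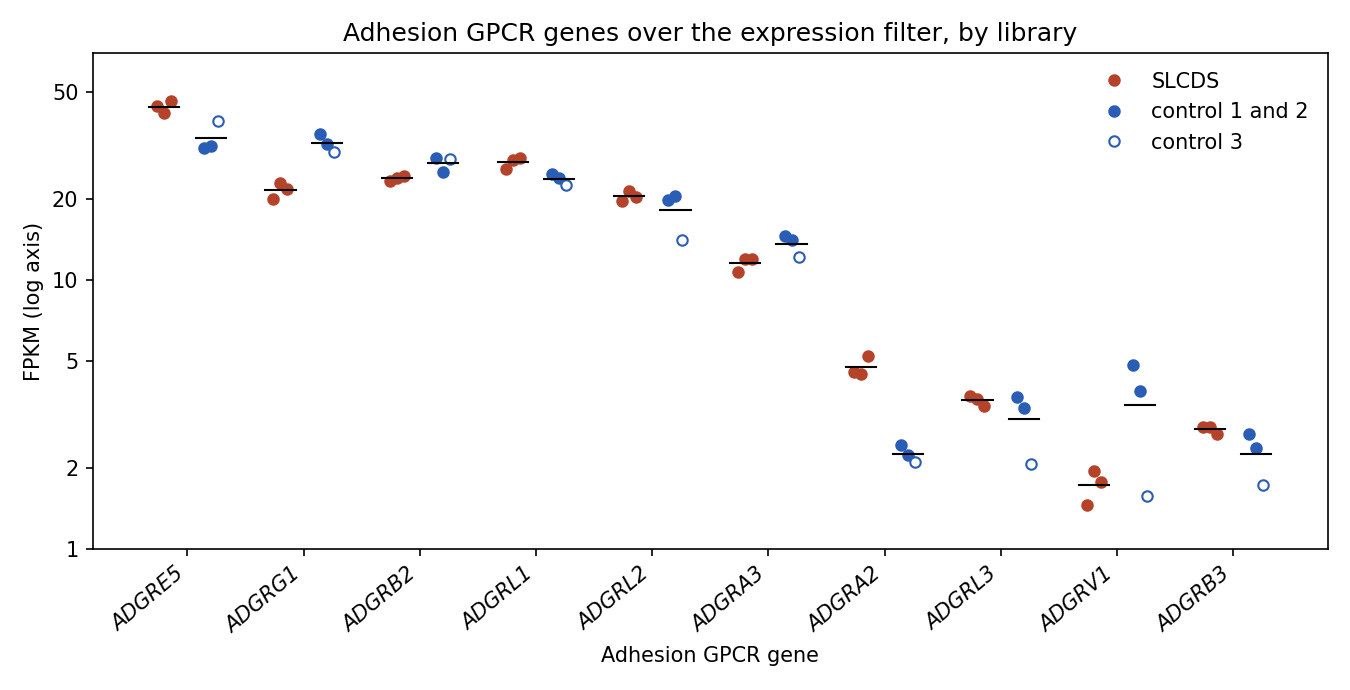
FPKM (y axis, log) of the 10 tested members in each library, SLCDS left and control right for each gene; bars mark group means and the open circle is control replicate 3. ADGRA2 lies at 4.50 to 5.24 in SLCDS and 2.12 to 2.45 in control, and ADGRG1 at 20.1 to 23.0 in SLCDS and 30.0 to 35.1 in control.

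In SLCDS libraries the order of levels by FPKM, a measure per transcript length, was ADGRE5, ADGRL1, ADGRB2, ADGRG1, ADGRL2, ADGRA3, ADGRA2, ADGRL3, ADGRB3 and ADGRV1. Neighbours in that order had separate ranges except ADGRG1 and ADGRL2. In control libraries it was ADGRE5, ADGRG1, ADGRB2, ADGRL1, ADGRL2, ADGRA3, ADGRV1, ADGRL3, ADGRA2 and ADGRB3. There the ranges of ADGRE5 and ADGRG1 overlapped, as did those of ADGRL2 and ADGRA3 and of each neighbouring pair among the last 4. Within each library the ratio of ADGRE5 to ADGRG1 was 2.22, 1.82 and 2.12 in SLCDS and 0.882, 0.981 and 1.31 in control. The ratio of ADGRL1 to ADGRG1 was 1.30, 1.21 and 1.30 in SLCDS and 0.707, 0.747 and 0.757 in control. These genes were picked after their values were seen, so the separation of the ratios adds nothing to that of the single genes.

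Among the receptors known for matrix and cell-surface ligands, ADGRG1 (also called GPR56) was the one that fell. It binds collagen III and transglutaminase 2, signals to RhoA, and is needed for normal cortical layering. Its FPKM was 20.1, 23.0 and 21.8 in SLCDS replicates 1 to 3 and 35.1, 32.2 and 30.0 in control replicates 1 to 3. All 3 SLCDS libraries lay below all 3 controls, and control replicate 3 was the lowest control. The log2 fold change was -0.56 (SE 0.09, limma, adjusted p = 0.0115). Leaving out any single SLCDS library ended the call, with limma adjusted p values of 0.0909, 0.0547 and 0.0824 without SLCDS replicates 1, 2 and 3. Without control replicate 3 the log2 fold change was -0.61 (limma, adjusted p = 7.01e-05), and over 17 alternatives the adjusted p ran from 1.39e-05 to 0.0909.

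ADGRE5 (CD97), a receptor of leukocytes and many tumours that binds CD55 and THY1, had the highest mean level of the members in SLCDS, and in control only with control replicate 3 included: without it the control mean was 31.3 FPKM, against 33.6 for ADGRG1. Its FPKM was 44.5, 42.0 and 46.3 in SLCDS and 31.0, 31.6 and 39.2 in control. The groups did not overlap, and control replicate 3 lay nearer to the SLCDS libraries than to the other controls. The log2 fold change of 0.38 (SE 0.10) missed the threshold over all libraries (limma, adjusted p = 0.0875). Without control replicate 3 ADGRE5 was higher in SLCDS, with a log2 fold change of 0.49 (limma, adjusted p = 5.8e-05), and over 17 alternatives the adjusted p ran from 2.28e-05 to 0.35. Its share of the family's summed FPKM was 28.0%, 25.4% and 27.5% in SLCDS and 18.3%, 19.7% and 25.3% in control. Its EGF-like repeats resemble those of ADGRE2, so fragments of ADGRE2 may be counted in either gene.

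ADGRA2 (GPR124), which acts with RECK as a co-activator of WNT7 signalling in brain vessels, had the clearest increase. Its FPKM was 4.57, 4.50 and 5.24 in SLCDS and 2.45, 2.24 and 2.12 in control, resting on 469, 454 and 548 fragments in SLCDS and 243, 222 and 219 in control. The groups were well separated, and control replicate 3 lay beside the other controls. The log2 fold change was 0.82 (SE 0.09, limma, adjusted p = 0.00217) on the log2(FPKM + 1) scale and 1.07 (SE 0.11) from the fragments with voom (adjusted p = 0.00176), a setting added after the data were seen. Over 16 alternatives, voom among them, the adjusted p ran from 7.57e-06 to 0.0239. Among the 6 endothelial markers CDH5 was also higher, at 4.57, 4.54 and 5.32 FPKM in SLCDS and 1.70, 1.40 and 2.62 in control (log2 fold change 1.02, limma, adjusted p = 0.0106). It was the only endothelial marker above the filter, and its call was lost without SLCDS replicates 1, 2 or 3 (limma, adjusted p = 0.0674, 0.0614 and 0.0759). The summed FPKM of the 6, made up mostly of CDH5, was 5.05 to 6.02 in SLCDS and 2.27 to 3.09 in control. KDR averaged 0.382 in SLCDS and 0.502 in control, and EMCN 0.158 in SLCDS and 0.105 in control. PECAM1 averaged 0.0781 in SLCDS and 0.0666 in control, VWF 0.0337 in SLCDS and 0.0594 in control, and TEK 0.00823 in SLCDS and 0.0086 in control. Whether the values of these markers bear on the ADGRA2 result was not tested. The other tested gene of this subfamily, ADGRA3 (GPR125), had 10.8, 12.0 and 12.0 FPKM in SLCDS and 14.7, 14.1 and 12.2 in control. Its groups touched without overlapping, with a log2 fold change of -0.21 (limma, adjusted p = 0.277), and it was lower without control replicate 3 (log2 fold change -0.29, limma, adjusted p = 0.00628), with adjusted p values of 0.00422 to 0.659 over 17 alternatives.

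The latrophilins, ADGRL1 to ADGRL4, bind teneurins and FLRT proteins across synapses and other cell contacts. ADGRL1 had 26.0, 28.0 and 28.4 FPKM in SLCDS and 24.8, 24.0 and 22.7 in control. The groups did not overlap, and the log2 fold change of 0.20 (95% confidence interval 0.03 to 0.36) gave a limma adjusted p of 0.192, 0.0357 without control replicate 3 and 0.0202 to 0.572 over 17 alternatives. ADGRL2 had 19.8, 21.5 and 20.4 FPKM in SLCDS and 19.97, 20.6 and 14.2 in control. Apart from control replicate 3 the libraries lay together, and the log2 fold change was 0.18 with it (limma, adjusted p = 0.57) and 0.02 without it (95% confidence interval -0.10 to 0.13). ADGRL3, a synapse-forming member, had 3.70, 3.62 and 3.42 FPKM in SLCDS and 3.68, 3.37 and 2.08 in control, again with control replicate 3 alone at the low end. Its log2 fold change was 0.20 over all libraries (limma, adjusted p = 0.574) and 0.02 without that library (95% confidence interval -0.14 to 0.18). ADGRL4, an endothelial receptor, was listed at 0 in 5 libraries and at 0.0171 FPKM in SLCDS replicate 2. Latrophilins made up 31.0% to 32.2% of the family's summed FPKM in SLCDS and 25.1% to 29.9% in control, with control replicate 3 lowest.

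The ADGRB subfamily, brain receptors first named as angiogenesis inhibitors, showed no call by limma over all libraries. ADGRB2 had 23.5, 24.0 and 24.5 FPKM in SLCDS and 28.6, 25.3 and 28.3 in control. These groups did not overlap, but the log2 fold change was -0.18 (95% confidence interval -0.35 to -0.01) and missed the threshold (limma, adjusted p = 0.236), and was -0.16 without control replicate 3 (limma, adjusted p = 0.0576). ADGRB3, which binds C1q-like proteins at synapses, had 2.84, 2.86 and 2.69 FPKM in SLCDS and 2.69, 2.37 and 1.73 in control. The groups overlapped, with a log2 fold change of 0.23 (95% confidence interval -0.05 to 0.51, limma, adjusted p = 0.371), and 0.10 without control replicate 3 (limma, adjusted p = 0.343). ADGRB1, an engulfment receptor that works through ELMO and DOCK1, was listed at 0 in 4 libraries and reached 0.0184 FPKM at most.

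ADGRV1, the very large receptor of sensory hair cells, had the most uneven control values. Its FPKM was 1.46, 1.95 and 1.79 in SLCDS and 4.86, 3.87 and 1.58 in control, from 477, 627 and 595 fragments in SLCDS and 1536, 1222 and 519 in control. Control replicates 1 and 2 lay above all SLCDS libraries, while control replicate 3 lay among them. Over all libraries the log2 fold change was -0.62 (SE 0.28, limma, adjusted p = 0.304). Without control replicate 3 it was -0.97 (SE 0.10, limma, adjusted p = 0.000105), where 27.8% of all genes tested were called. With each library's trend over transcript length removed, a setting added after the data were seen, it was -0.73 (SE 0.15, limma, adjusted p = 0.0157), where 13.3% of 11476 genes were called. Over 16 alternatives the limma adjusted p ran from 5.12e-05, with array weights, to 0.64. With array weights 28.5% of all genes tested were called. ADGRV1 has the longest transcript of the members, and control replicate 3 lay 1.05 below the other controls on the log2(FPKM + 1) scale for it, where tested genes of 6000 nucleotides or more had a median of -0.30. How far transcript length accounts for that value was not tested.

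**Figure D3:**
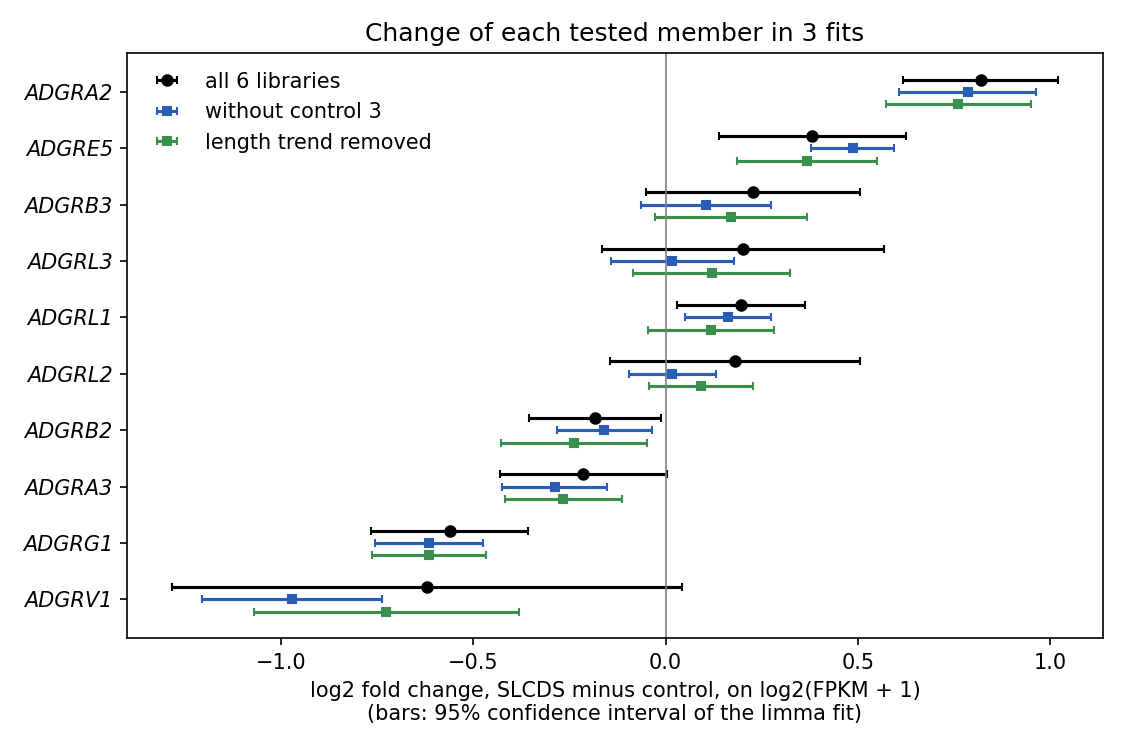
Log2 fold change of SLCDS minus control on the log2(FPKM + 1) scale (x axis) with its 95% confidence interval for the 10 tested members (y axis), over all 6 libraries, without control replicate 3, and with the trend over transcript length removed. ADGRA2 and ADGRG1 keep values of 0.76 to 0.82 and -0.61 to -0.56, while ADGRV1 ranges from -0.97 to -0.62.

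All 15 members outside the filter had an FPKM under 1 in all 6 libraries. The nearest to the threshold was ADGRG6, with 0.563 FPKM at most, and the nearest inside it was ADGRV1, with 1.46 at least. Besides ADGRG6, FPKM reached 0.3 in some library for ADGRD1 and ADGRE1. ADGRE2, ADGRE3, ADGRF1, ADGRF2, ADGRF3, ADGRG2, ADGRG3, ADGRG4, ADGRG5 and ADGRG7, with ADGRB1 and ADGRL4 already given, stayed under it, the highest among them being ADGRG2 with 0.285 FPKM in SLCDS replicate 2. ADGRF2, ADGRG4 and ADGRG7 were each listed at 0 in 5 libraries. ADGRG3 lay at 0.0421 to 0.0743 FPKM in SLCDS and 0.0783 to 0.125 in control, from 5 to 9 fragments in SLCDS and 9 to 15 in control. At these levels a transcript made by a few cells and one made at a low rate by all cells cannot be told apart.

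ADGRG6 (GPR126) is needed for Schwann cell myelination in mouse and zebrafish and binds collagen IV, laminin 211 and the prion protein. Its FPKM was 0.480, 0.547 and 0.563 in SLCDS and 0.278, 0.226 and 0.188 in control, from 66, 74 and 79 fragments in SLCDS and 37, 30 and 26 in control. The groups were clearly separate, with a 2.30-fold ratio of mean FPKM. In the fit without a filter the log2 fold change was 0.31 (SE 0.04, limma, adjusted p = 0.00984, where 4.95% of 16832 genes were called), and from the fragments with voom it was 1.21 (SE 0.20, adjusted p = 0.0139, where 6.95% of 13170 genes were called). The limma call was lost without SLCDS replicate 2 (adjusted p = 0.0532), without control replicate 2 (0.052) and with the length trend removed (0.0615).

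ADGRE1 marks macrophages in mouse, where its protein is the F4/80 antigen, and eosinophils in human. Its FPKM was 0.296, 0.389 and 0.187 in SLCDS and 0.0180, 0.0540 and 0.0863 in control, from 17, 22 and 11 fragments in SLCDS and 1, 3 and 5 in control. The groups did not overlap, and without a filter the log2 fold change was 0.29 (SE 0.06, limma, adjusted p = 0.0479). From the fragments with voom it was 2.39 (SE 0.56, adjusted p = 0.0465). The voom fit took genes with at least 10 fragments in 3 or more libraries. ADGRE1 met that only through the SLCDS libraries, where it was high, so its voom p-value is no added support. The limma call was lost without SLCDS replicates 1 or 2 (adjusted p = 0.171 and 0.114), without control replicates 1 or 2 (0.146 and 0.135) and with the length trend removed (0.0517). Of the 7 myeloid markers CD14 and CD68 passed the filter and neither was called over all libraries (CD68 was higher without control replicate 3, limma, adjusted p = 0.0172), and the summed FPKM of the 7 was 4.81 to 6.10 in SLCDS and 4.25 to 4.80 in control. PTPRC averaged 0.0092 FPKM in SLCDS and 0.0446 in control, and ITGAM 0.00409 in SLCDS and 0.0511 in control. ADGRD1 (GPR133), studied in glioblastoma, had 0.321, 0.326 and 0.463 FPKM in SLCDS and 0.356, 0.325 and 0.288 in control, with overlapping groups (log2 fold change 0.05, limma without a filter, adjusted p = 0.700).

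**Figure D4:**
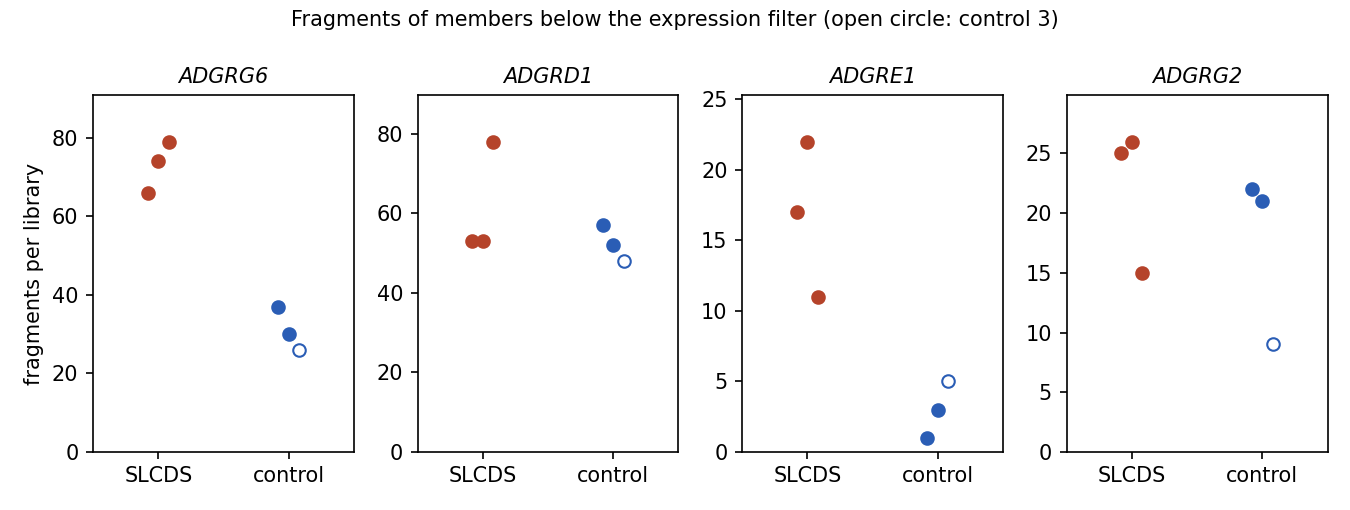
Fragments per library (y axis, from 0) of 4 members below the filter, SLCDS left and control right, open circle for control replicate 3. ADGRG6 lies at 66 to 79 fragments in SLCDS and 26 to 37 in control, and ADGRE1 at 11 to 22 and 1 to 5, while ADGRD1 and ADGRG2 overlap between the groups.

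Among 24 measured genes for ligands of these receptors 14 were tested, of which 3 rose, 1 fell and 10 did not pass, where 6.09% of all genes tested were called, with a median log2 fold change of 0.22. Without control replicate 3, 5 were higher and 3 lower, where 27.8% of all genes tested were called, and the median was 0.08. COL4A1 and COL4A2, the collagen IV chains that ADGRG6 can bind, both rose. COL4A2 had 36.6, 37.7 and 37.5 FPKM in SLCDS and 24.2, 25.2 and 25.03 in control (log2 fold change 0.57, limma, adjusted p = 0.00256), and COL4A1 had a log2 fold change of 0.63 (limma, adjusted p = 0.00466). C1QL1, a secreted partner of ADGRB3, fell to 20.5, 19.9 and 21.0 FPKM in SLCDS, against 40.6, 39.4 and 60.0 in control. Its log2 fold change was -1.13 (limma, adjusted p = 0.00666), and the call was lost without SLCDS replicates 1, 2 or 3 (limma, adjusted p = 0.0572, 0.0553 and 0.0507) while its log2 fold change was -0.93 without control replicate 3, the highest library. The fourth call, RTN4RL2, a relative of the Nogo receptor that ADGRB1 binds, rose at a low level with a log2 fold change of 0.77 (limma, adjusted p = 0.0331). Its FPKM was 1.63, 1.06 and 1.65 in SLCDS and 0.166, 0.525 and 0.636 in control. It thus met the filter only through the SLCDS libraries, and its entry into the test depended on the increase. Without a filter its limma adjusted p was 0.0492, where 4.95% of 16832 genes were called. The call was lost without control replicates 1 or 2 (limma, adjusted p = 0.0712 and 0.0779), with a pseudocount of 0.1 (0.0636), with quantile normalization (0.084), with the replicate block (0.0509) and with voom (0.0566), which left it in 7 of 13 alternatives. Collagen III and transglutaminase 2, the ligands of ADGRG1, were under the filter, COL3A1 at a mean of 0.268 FPKM in SLCDS and 0.0735 in control and TGM2 at 0.0639 and 0.0194. The ADGRE5 ligands CD55 (log2 fold change 0.33, limma, adjusted p = 0.071) and THY1 (-0.38, limma, adjusted p = 0.103) did not pass, and without control replicate 3 CD55 was higher (limma, adjusted p = 0.0022) and THY1 lower (limma, adjusted p = 0.00168). COL3A1, TGM2, CD55 and THY1 were named for their receptors after their values were seen.

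Of 28 membrane and scaffold partners 21 were tested, of which 3 rose, 0 fell and 18 did not pass, where 6.09% of all genes tested were called, with a median log2 fold change of 0.12 that turned to -0.0099 without control replicate 3. UNC5B, which joins FLRT and latrophilin complexes, had 8.27, 8.44 and 8.11 FPKM in SLCDS and 0.907, 1.54 and 0.738 in control (log2 fold change 2.19, limma, adjusted p = 0.000435). NRXN3, of the neurexin family that can bind ADGRL1, had 2.30, 2.18 and 2.30 FPKM in SLCDS and 0.671, 0.668 and 0.542 in control (log2 fold change 1.00, limma, adjusted p = 0.000688). NRXN3 met the filter only through the SLCDS libraries, as every control library lay under 1 FPKM, so its entry into the test depended on the increase. Without a filter its limma adjusted p was 0.00114, where 4.95% of 16832 genes were called. For UNC5B only control replicate 2 among the controls reached 1 FPKM. ITGB1, an integrin chain of a partner of ADGRE5, had 151, 150 and 156 FPKM in SLCDS and 110, 107 and 84.9 in control (log2 fold change 0.60, limma, adjusted p = 0.0221), a call lost without SLCDS replicates 1, 2 or 3 (limma, adjusted p = 0.132, 0.126 and 0.139), with quantile normalization (0.0666) and with the replicate block (0.0544). All 3 genes had separate groups with SLCDS above, as did 15.5% of all genes tested. As the 3 were named for passing the test, this adds nothing to their calls. The list held 7 higher and 1 lower without control replicate 3, where 27.8% of all genes tested were called. RECK, the partner of ADGRA2, was named after its values were seen and had a log2 fold change of -0.03 (limma, adjusted p = 0.932).

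Of 13 tested genes for G proteins and RhoA exchange factors 0 passed over all libraries by limma and 0 by voom, where 6.09% and 6.95% of all genes tested were called. By limma 2 of the 13 had an unadjusted p under 0.05, as had 2139 of all 11506 genes tested. Without control replicate 3 GNAO1 was higher (log2 fold change 0.21, limma, adjusted p = 0.0466) and GNAI2 lower (log2 fold change -0.18, limma, adjusted p = 0.0103), where 27.8% of all genes tested were called. The 2 most abundant were GNAI2, with 180, 167 and 175 FPKM in SLCDS and 200, 194 and 249 in control (log2 fold change -0.29, limma, adjusted p = 0.216), and RHOA, with 185, 174 and 174 FPKM in SLCDS and 169, 166 and 205 in control (log2 fold change -0.02, limma, adjusted p = 0.958). The CELSR genes, adhesion receptors of planar cell polarity whose symbols do not start with ADGR, had 2 tested members and no call by limma or voom. Neither had an unadjusted p under 0.05, with the same counts over all genes tested as above. CELSR2 had 35.3, 42.0 and 39.0 FPKM in SLCDS and 50.3, 46.7 and 33.0 in control, with control replicate 3 below the SLCDS libraries (log2 fold change -0.14, limma, adjusted p = 0.710). Without that library CELSR2 was lower (log2 fold change -0.32, limma, adjusted p = 0.00613), where 27.8% of all genes tested were called. CELSR3 had 5.17, 5.38 and 5.08 FPKM in SLCDS and 5.19, 5.16 and 3.73 in control, close together apart from control replicate 3 (log2 fold change 0.14, limma, adjusted p = 0.618).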

How the data were processed

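TRIzol was used for RNA extraction and the VAHTS Universal V6 kit for the libraries, as the labels' protocols state. The deposited values are FPKM per gene symbol, computed by the authors from reads. For the aligner and the gene annotation, the sources used here give no name, and the builds named in the submitters' processing notes, GRCm38 and mm10, are mouse builds although the line is human, so no coordinates were taken from the files. Fragments and transcript lengths were recovered from the steps of the FPKM values.

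Genes with FPKM of at least 1 in 3 or more of the 6 libraries (11506 of 16832) were tested on log2(FPKM + 1), a scale that understates changes of low genes, with limma 3.58.1 in R 4.3.3 (moderated test with a mean-variance trend, Benjamini-Hochberg adjustment over all genes tested, threshold 0.05). The tests were also run on simulated data, with outcomes not given here. Those runs are not taken as evidence for the fit over all 6 libraries, where control replicate 3 departed with transcript length. Of 17 alternatives, removal of the length trend and voom on recovered fragments were added after seeing the data, as were the alternatives for members below the filter. Receptors over the filter were named, and partner genes where they passed the test or led their list. The members and lists were chosen with earlier results of these data known. The replicate numbers were not taken as pairs, and whether the libraries were paired is not known. Start regions came from RefSeq (GRCh38.p14).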

Additional observations from a re-analysis of the deposited data

How the results depend on the processing

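Under 17 alternatives no call of a member reversed its direction. ADGRA2 was called under all 16 alternatives in which it was tested, and ADGRG1 under 14 of 17. The number of genes called, 701 over all libraries, was 324 with a mean FPKM of at least 5, 3277 with array weights, 1523 with the length trend removed and 196 to 3182 when 1 library was left out. Members called, 2 of 10 over all libraries (6.09% of all genes tested), were 4 of 25 with no filter (4.95%) and 1 of 6 with a mean FPKM of at least 5 (3.86%). They were 6 of 10 with array weights (28.5%), 5 of 10 with the length trend removed (13.3%) and 4 of 14 with voom (6.95%), which ADGRE1 entered only through the SLCDS libraries. When 1 library was left out they were 1 to 6 of 10 (1.72% to 27.8%). The same shares of all genes belong to the list counts that follow, with 7.34% for quantile normalization. Ligand calls (4) were 2 with a mean FPKM of at least 5, 7 with array weights and 2 to 8 with 1 library left out. Calls among membrane and scaffold partners (3) were 1, 7 and 1 to 8 under the same settings and 5 with the length trend removed. G protein calls (0) were 1 with quantile normalization, 2 with array weights, 1 with the length trend removed and 0 to 2 with 1 library left out, and CELSR calls (0) were 1 with array weights and 0 to 1 with 1 library left out. ADGRE5 passed with quantile normalization (log2 fold change 0.41), array weights (0.49) and the length trend removed (0.37). ADGRA3 passed with array weights (-0.27) and the length trend removed (-0.27), ADGRV1 with array weights (-0.93) and the length trend removed (-0.73), and ADGRL1 with array weights (0.17). Over the fits with 1 library left out, log2 fold changes were -0.61 to -0.50 for ADGRG1, -0.29 to -0.16 for ADGRA3, 0.32 to 0.49 for ADGRE5, 0.16 to 0.23 for ADGRL1 and -0.97 to -0.38 for ADGRV1, with ADGRE1 at 0.24 to 0.35 (0.27 without control replicate 1) and ADGRG6 at 0.29 to 0.34 without a filter. With the length trend removed, ADGRE1 (0.28) and ADGRG6 (0.25) lost their calls. The causes of these differences were not tested. Deviations of same-numbered libraries from their group means correlated at -0.33, 0.36 and 0.07. Control replicates 1 and 2 gave nearly the same correlation with each SLCDS library, such as -0.33 and -0.31 with SLCDS replicate 1. Control replicate 3 gave the opposite sign each time (0.36 with SLCDS replicate 1). The check thus mostly reads control replicate 3 and cannot decide whether the libraries were paired, and the numbers were not taken as pairs. With the replicate block 455 genes were called, ADGRA2 and ADGRG1 among them, and not every library correlated best with its own number, while ADGRE1 (0.29) and ADGRG6 (0.31) lost their calls under the block without a filter. Depth limits the genes below the filter most, where ADGRE1 rested on 1 to 22 fragments per library.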
